A study of Arabidopsis thaliana with 4 samples.

Results

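Transcripts of 10 Arabidopsis thaliana genes for abscisic acid (ABA) synthesis were compared between the ced2 mutant and its wild type under osmotic stress. The genes were taken by locus and not by a cut on their values, though the list was made with earlier results of these data known. They are the carotene hydroxylases BCH1 (AT4G25700) and BCH2 (AT5G52570), the epoxidase ABA1 (AT5G67030), ABA4 (AT1G67080), the dehydrogenase ABA2 (AT1G52340), the aldehyde oxidases AAO1 (AT5G20960), AAO2 (AT3G43600), AAO3 (AT2G27150) and AAO4 (AT1G04580), and the cofactor sulfurase ABA3 (AT1G16540). All 10 were on the array, out of 25356 genes with a named probe, and 15 of the 43533 probes used belonged to them. There were 2 arrays of ced2 seedlings and 2 of wild-type seedlings, each hybridised with the pooled RNA of 20 whole plants. The ced2 mutant was in the gl1-Col0 ecotype, and the wild type was the gl1-Col0 line that carries luciferase under the NCED3 promoter. Both genotypes were 14 d old and had spent 6 h in 40% polyethylene glycol (PEG), a polymer that draws water out of tissue. No unstressed seedlings were among the 4 samples, so each value below is a level under stress and not a response to it.

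ABA is the hormone that closes stomata and switches on protective genes when water is short. Plants make it from carotenoids: in plastids BCH enzymes hydroxylate beta-carotene to zeaxanthin, ABA1 turns zeaxanthin into violaxanthin, and ABA4 is needed for neoxanthin. A 9-cis-epoxycarotenoid dioxygenase (NCED) then cleaves the xanthophyll to xanthoxin, and in the cytosol ABA2 converts xanthoxin to abscisic aldehyde, which an aldehyde oxidase, chiefly AAO3 in Arabidopsis, oxidises to ABA. Aldehyde oxidases carry a molybdenum cofactor that works only after ABA3 has added sulfur to it. The cleavage by NCED is generally held to be the limiting step, so the genes described here stand on either side of it.

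Levels are given as the log2 processed signal of a gene's brightest probe minus the array's 75th percentile, so 0 is the level of a probe brighter than 75% of the others. Differences are ced2 files minus WT files, where "files" refers to the genotype label of the scanner file. That wording is needed because the labels disagree: each column of the authors' value table held the values of a scanner file with the opposite genotype label (r = 0.999999 across 43533 probes) and correlated negatively with the scanner file of its own sample (r between -0.573 and -0.369). Under the table's labels every sign below would turn. VSR1, the vacuolar sorting receptor gene for which ced2 is known, had levels of -0.85 and -0.82 in the ced2 files, against 2.80 and 2.87 in the WT files. NCED3, the stress-induced dioxygenase gene, had levels of -0.65 and -0.67 in the ced2 files, against 0.68 and 0.67 in the WT files.

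The 75th percentile of the processed signal was 3710 and 4444 on the ced2 arrays, against 3322 and 2790 on the WT arrays. Between replicate arrays the median gene differed by only 0.03 (ced2) or 0.04 (WT) on the log2 scale. With so little spread, limma's moderated test passed 77.9% of 20835 genes at an adjusted p of 0.05. In the ced2 files 42.4% were higher and 35.6% lower, and for 90.2% of genes the groups did not overlap. Of the genes called, 54.4% were higher, against 36.4% with normexp background correction and the 75th percentile, an alternative added after seeing the data that also moved the median gene to -0.14 in place of 0.05. A call is therefore the usual outcome for a gene on these arrays, and sizes carry more information than calls. The median gene differed by 0.36 in either direction, and 12.3% of genes differed by at least 1.

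Of the 10 genes, 3 were higher in the ced2 files (ABA2, AAO2, BCH2), 5 were lower (ABA3, AAO3, AAO4, ABA1, ABA4) and 2 did not pass (BCH1, AAO1). The share called was thus close to the 77.9% of all genes, and the groups overlapped for none of the 10. All 10 were well above background and were tested, and their median difference was -0.07, beside 0.05 over all genes. By role, the 4 xanthophyll genes differed by 0.05 to 0.24, each less than the median gene. ABA2, ABA3, AAO2, AAO3 and AAO4 each differed by 0.52 to 0.98, more than the median gene, and AAO1 by 0.05.

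**Figure D1:**
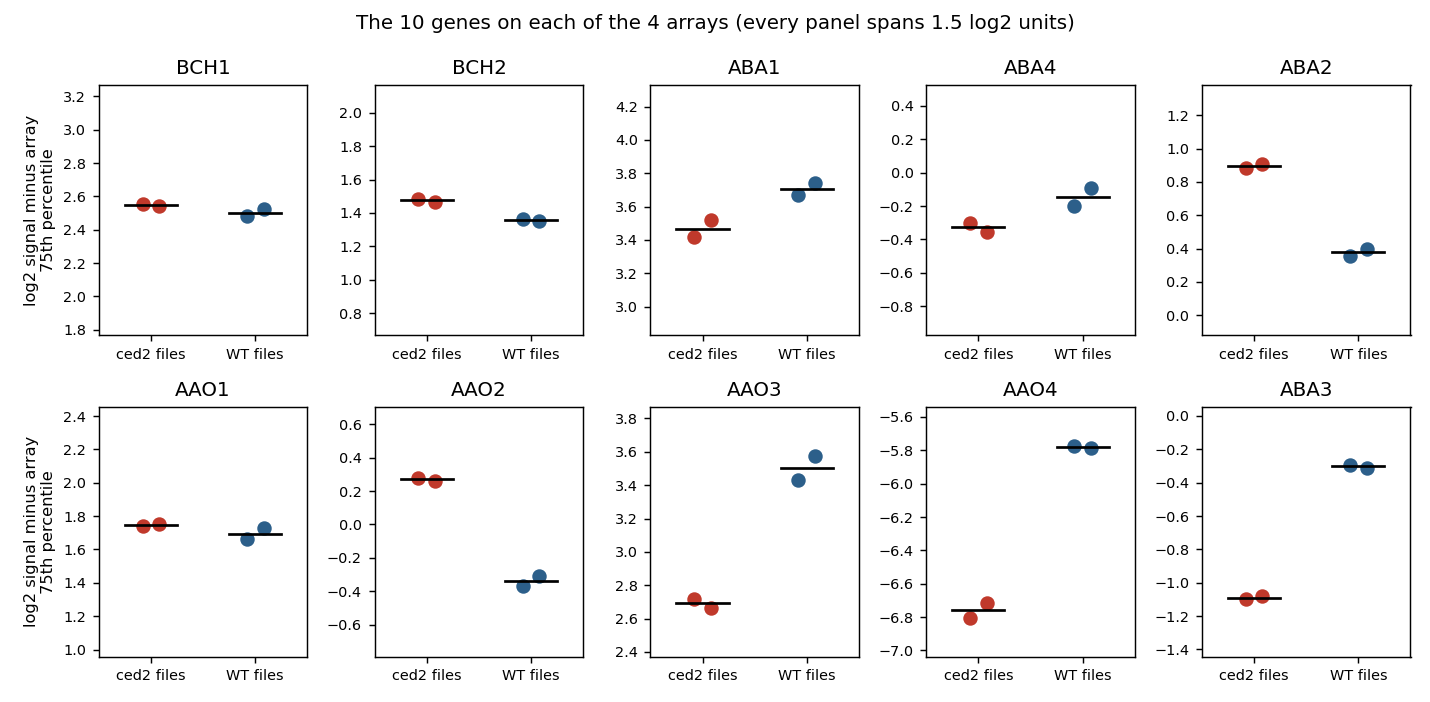
Log2 signal minus the array's 75th percentile (y axis) of each of the 10 genes on the 2 ced2 arrays (red, left) and the 2 WT arrays (blue, right), where points are arrays and bars are means of 2. The separation is wide for ABA2, AAO2, AAO3, AAO4 and ABA3 and narrow for BCH1, BCH2 and AAO1.

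Among the genes that make xanthophylls, BCH1, a non-haem hydroxylase of the beta-rings, had levels of 2.56 and 2.54 in the ced2 files, against 2.48 and 2.52 in the WT files. Its difference was 0.05 (SE 0.03, 95% interval -0.03 to 0.13, limma adjusted p = 0.192) and did not pass. The other BCH1 probes gave 0.05 and 0.17 and did not pass either (limma adjusted p = 0.134 and 0.0678 over probes). The mean over its 3 probes, however, was called higher (0.09, limma adjusted p = 0.0344). BCH2, the second hydroxylase gene, had 1.48 and 1.47 in the ced2 files, against 1.36 and 1.35 in the WT files. It was called higher by 0.12 (SE 0.02, 95% interval 0.05 to 0.19, limma adjusted p = 0.0129), or 8.62%. The scanner software itself puts an error of at least 10% of the signal on each of these spots. The BCH2 difference, though taken between means of 2 arrays, was smaller than this error of 1 spot. The hydroxylase calls depended on the scaling and on single arrays. BCH1 was called higher by 0.13 with quantile normalization (adjusted p = 0.0109), and the BCH2 call ended with normexp background correction (0.11, adjusted p = 0.108) and without WT replicate 2, ced2 replicate 1 or ced2 replicate 2 (adjusted p = 0.052, 0.0957 and 0.0707).

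ABA1, the zeaxanthin epoxidase whose loss gave one of the first ABA-deficient mutants, had levels of 3.42 and 3.52 in the ced2 files, against 3.67 and 3.74 in the WT files. The groups did not overlap, and the call was lower by 0.24 (SE 0.05, 95% interval -0.39 to -0.09, limma adjusted p = 0.0194). The second ABA1 probe, a dimmer one designed to the same transcript accession, gave the other sign: 0.13 and 0.07 in the ced2 files, against 0.04 and 0.05 in the WT files. That probe differed by 0.06 and did not pass (limma adjusted p = 0.182 over probes). The ABA1 call also ended with quantile normalization (-0.14, adjusted p = 0.0813), with cyclic loess (-0.11, adjusted p = 0.157) and without WT replicate 1, WT replicate 2 or ced2 replicate 1 (adjusted p = 0.0542, 0.0894 and 0.0747). The mean of both probes was called lower by 0.09 (adjusted p = 0.0442), and the sign was negative in all 14 alternatives that follow the scanner labels, from -0.29 to -0.09. Apart from that mean, these alternatives used the brighter probe alone, so the second probe's sign had no part in them. Some of the 14 could change a call but not a difference. These altered only the filter on dim probes, the limma model or the p threshold.

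ABA4, the plastid membrane protein required for neoxanthin, had levels of -0.30 and -0.35 in the ced2 files, against -0.20 and -0.09 in the WT files. It was called lower by 0.18 (SE 0.05, 95% interval -0.33 to -0.04, limma adjusted p = 0.0358), with no overlap between the groups. The sign held in the same 14 alternatives, from -0.23 to -0.13. The call was lost without WT replicate 2, ced2 replicate 1 or ced2 replicate 2 (adjusted p = 0.0816, 0.099 and 0.145) and with the replicate number as a block (adjusted p = 0.0797).

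**Figure D2:**
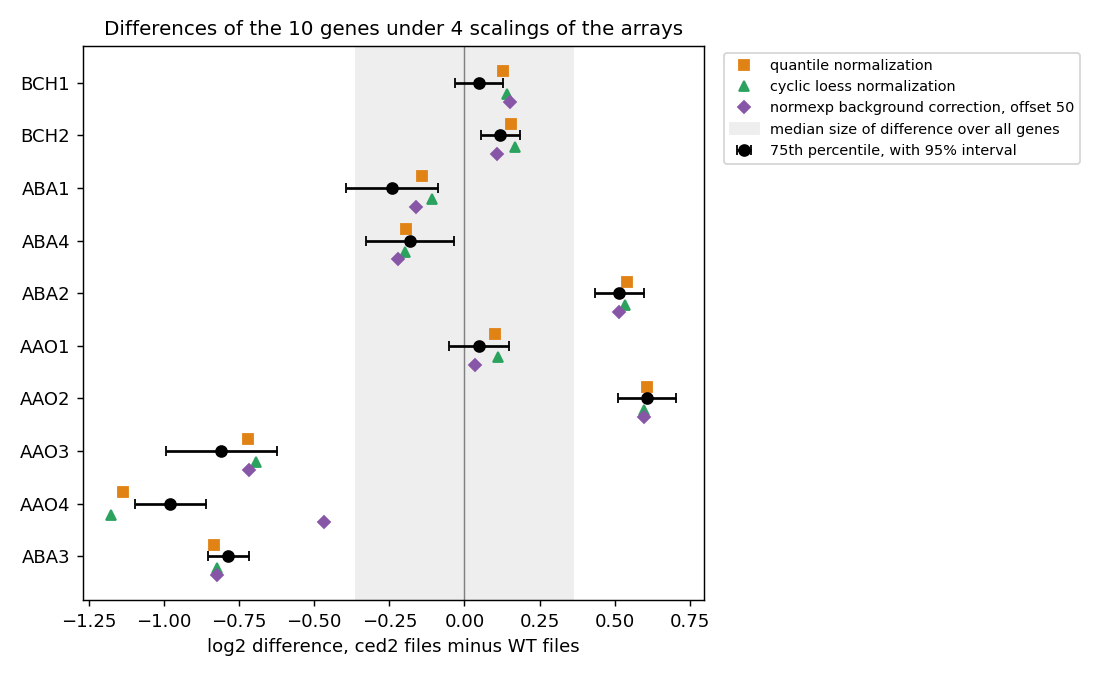
Log2 difference, ced2 files minus WT files (x axis), of the 10 genes (y axis) with its 95% interval (black) and under 3 other scalings or background corrections (coloured symbols). The shaded band is the median size of difference over all genes, 0.36, and the point estimates of the 4 xanthophyll genes and AAO1 lie inside it under each setting drawn.

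After the cleavage, ABA2 and AAO2 were higher, ABA3, AAO3 and AAO4 were lower, and AAO1 did not pass. ABA2, the short-chain dehydrogenase that makes abscisic aldehyde, had levels of 0.88 and 0.91 in the ced2 files, against 0.36 and 0.40 in the WT files. Both ced2 arrays lay above both WT arrays, and the level was 1.43-fold higher (log2 0.52, SE 0.03, 95% interval 0.43 to 0.60, limma adjusted p = 0.000562). The difference stayed between 0.49 and 0.54 in the 14 alternatives and passed in each. ABA2 moved against NCED3, which was lower by 1.33 in the same files (limma adjusted p = 0.000161).

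AAO3, the oxidase that makes most of the ABA in leaves, had levels of 2.72 and 2.67 in the ced2 files, against 3.43 and 3.58 in the WT files. Both ced2 arrays were lower, by 0.81 on average (SE 0.06, 95% interval -0.99 to -0.62, limma adjusted p = 0.00123), a level 1.75-fold below that in the WT files. Of all genes tested, 81.8% differed by less. A second AAO3 probe, designed to another RefSeq transcript accession of the gene, was dim, with -7.84 and -7.63 in the ced2 files, against -6.72 and -6.64 in the WT files. Only 1 of the 2 ced2 spots was well above background, so the size of its difference, -1.05 here and -0.27 with normexp and quantile normalization, was not settled.

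AAO2 went the other way from AAO3. AAO2, a related aldehyde oxidase, had levels of 0.28 and 0.26 in the ced2 files, against -0.37 and -0.31 in the WT files. Both ced2 arrays were higher, by 0.61 (SE 0.03, 95% interval 0.51 to 0.70, limma adjusted p = 0.000548), or 1.52-fold. AAO1, an oxidase with a preference for indole-3-acetaldehyde in enzyme assays, had 1.74 and 1.75 in the ced2 files, against 1.66 and 1.73 in the WT files. Its difference was 0.05 (95% interval -0.05 to 0.15, limma adjusted p = 0.253), and its second probe gave 0.08 (limma adjusted p = 0.117 over probes). Neither AAO1 probe passed, though the brighter one did with cyclic loess (0.11, adjusted p = 0.0398).

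AAO4, an oxidase known from siliques, was the dimmest of the 10, as its processed signals of 33.3 and 42.5 in the ced2 files and 61.1 and 50.8 in the WT files show. All 4 spots were well above background, with scanner errors of 19.3% and 12.9% of the signal in the ced2 files and 11.1% in both WT files. Its levels were -6.80 and -6.71 in the ced2 files, against -5.77 and -5.79 in the WT files, without overlap. That is 0.98 lower (SE 0.04, 95% interval -1.10 to -0.86, limma adjusted p = 0.000349), a level 1.97-fold below that in the WT files, and 87.2% of genes differed by less. The size depended on the processing, and which choice moved it was not tested. AAO4 was lower by 0.47 with normexp, which adds an offset of 50, and quantile normalization. It was lower by 1.49 with the same normexp step and the 75th percentile, and by 1.14 with quantile normalization alone. It passed in each of the 14 alternatives (adjusted p at most 0.007).

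ABA3, the molybdenum cofactor sulfurase on which all aldehyde oxidases depend, had levels of -1.10 and -1.08 in the ced2 files, against -0.29 and -0.31 in the WT files. The ced2 arrays lay below the WT arrays by 0.79 (SE 0.02, 95% interval -0.85 to -0.72, limma adjusted p = 0.000225), a level 1.72-fold below that in the WT files. In the 14 alternatives the difference ranged from -0.83 to -0.78 and passed in each. ABA2, ABA3, AAO2, AAO3 and AAO4 kept their call in every one of these 14 alternatives, and the other 5 genes did not. All 10 genes kept their direction. Direction could not change where only the filter, the limma model or the p threshold was altered. For a gene with 1 probe, averaging the probes left its difference unchanged as well.

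**Figure D3:**
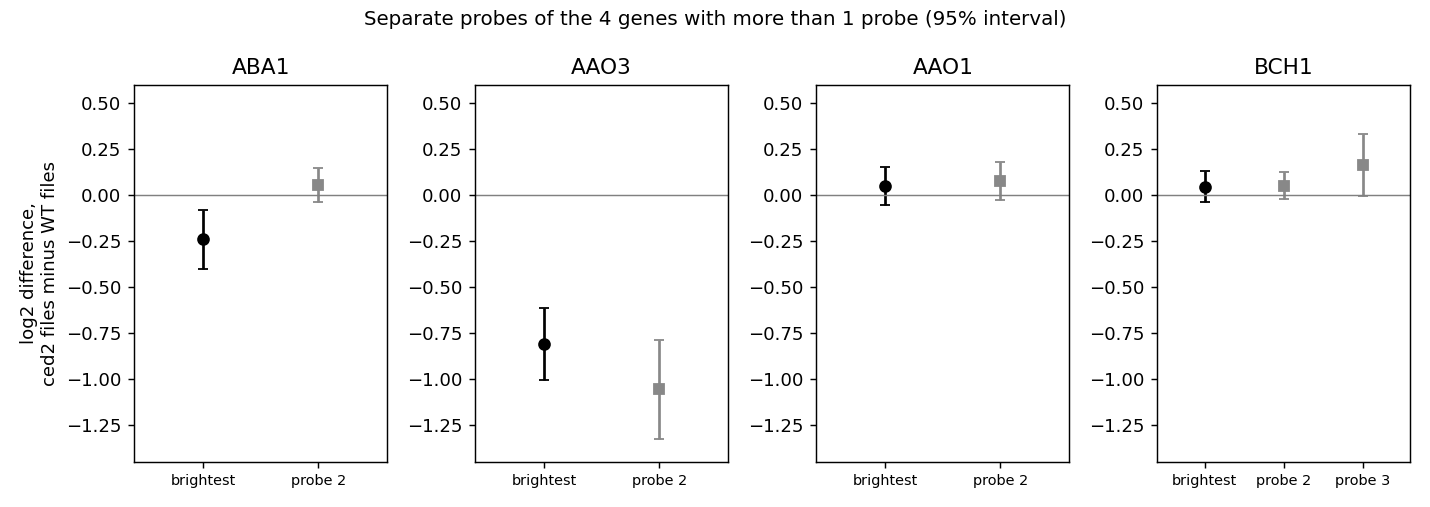
Log2 difference, ced2 files minus WT files (y axis), with 95% interval, for each probe of the 4 genes that have more than 1, where the black circle is the brightest probe, used for the gene, and grey squares are the others. The 2 probes of ABA1 lie on opposite sides of 0, both AAO3 probes lie below 0, and no probe of AAO1 or BCH1 passed. The dimmer AAO3 probe was well above background on only 1 ced2 array.

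Over the separate probes of the 10 genes, 3 of 15 were higher, 6 were lower and 6 did not pass, beside 74.1% called, 39.3% higher and 34.8% lower, among all 33211 probes tested. All but the dim AAO3 probe, called lower, were well above background on all 4 arrays. That probe passed the filter only through the WT files, where it was brighter, so its call is not independent of the filter. Of the 10 genes, 6 had 1 probe each, so nothing on the array checks their values independently. Each probe was a single spot, and none was saturated. Probe sequences were not used here. Whether the probes of AAO1 to AAO4, or of BCH1 and BCH2, hybridise to their related transcripts was not tested.

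Because related genes moved unequally, their difference was taken within each array. The signal of AAO2 relative to AAO3 was -2.44 and -2.41 in the ced2 files, against -3.80 and -3.88 in the WT files, so this log ratio was 1.42 higher in the ced2 files. AAO1 relative to AAO3 was higher by 0.86, with -0.98 and -0.92 in the ced2 files, against -1.77 and -1.85 in the WT files. The difference of AAO3 less that of AAO4 was 0.17, an order that turned with normexp and quantile normalization, where AAO3 was at -0.72 and AAO4 at -0.47. The difference of BCH1 less that of BCH2 was -0.07 with the brightest probes, though another BCH1 probe, at 0.17, exceeded the 0.12 of BCH2. The groups overlapped in none of the 7 pairs, which were compared after the genes had been seen to move unequally, beside 90.2% of single genes without overlap. An exact permutation test over 6 arrangements of the arrays, two-sided, gave p = 0.333 for each pair, also after adjustment over the 7, and that is the smallest p which 2 arrays against 2 allow.

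The same cofactor and its sulfurase serve other enzymes, whose genes had differences from -1.17 to -0.32. XDH1 and XDH2, xanthine dehydrogenases of purine breakdown that also need ABA3, were lower by 1.17 and 1.15 (limma adjusted p = 0.000352 and 0.000174). XDH1 had levels of -1.35 and -1.42 in the ced2 files, against -0.17 and -0.26 in the WT files, and XDH2 had -0.23 and -0.21 in the ced2 files, against 0.92 and 0.94 in the WT files. In both genes the groups lay far apart for their spread. Whether the probes of XDH1 and XDH2 hybridise to each other's transcripts was not tested. Of the 6 enzyme genes that depend on ABA3, a grouping made after the values were seen, 4 were lower, AAO2 was higher and AAO1 did not pass. Among all genes 35.6% were lower, and 77.9% were called in either direction.

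Molybdoenzymes that use the cofactor without that sulfur were lower as well. NIA1, a nitrate reductase, was lower by 0.85 (limma adjusted p = 0.000407), and SOX, the sulfite oxidase, by 0.32 (adjusted p = 0.00142). NIA2, the major nitrate reductase gene, was lower by 0.32 (adjusted p = 0.00886), but its sign turned with quantile normalization (0.02, adjusted p = 0.501). The NIA2 call also ended with normexp and quantile normalization (-0.04, adjusted p = 0.298). Both NIA2 and SOX differed by less than the median gene, at 0.36. All 5 genes of the molybdoenzyme list were thus lower in the setting used throughout, with a median of -0.85, where 35.6% of all genes were lower.

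Genes that build the cofactor differed less. Of 6, CNX2 (-0.34), CNX1 (-0.24), CNX7 (-0.23) and CNX6 (-0.17) were lower (limma adjusted p between 0.000787 and 0.0217), and the median was -0.20. Among all genes 35.6% were lower, and 77.9% were called in either direction. CNX5 (0.13) and CNX3 (0.03) did not pass, and the sign of CNX3 turned with quantile normalization, normexp, cyclic loess and without WT replicate 2. The CNX6 call was lost without WT replicate 2, ced2 replicate 1 or ced2 replicate 2 (adjusted p = 0.0607, 0.0764 and 0.105), and that of CNX2 when its 2 probes were averaged (-0.18, adjusted p = 0.141).

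Of 10 other carotenoid genes, not all of them upstream of the xanthophylls, 5 were higher, 3 were lower and 2 did not pass. Their median was 0.10, and these shares were close to the 42.4% higher and 35.6% lower of all genes. PSY, the phytoene synthase that opens the pathway, was higher by 0.46, and so were CYP97A3 (0.58) and LUT1 (0.45), the cytochrome P450 hydroxylases of the lutein branch, and the lycopene beta-cyclase LYC (0.33) (limma adjusted p between 0.000505 and 0.00122). Averaged over its 2 probes, LUT1 was higher by only 0.16 (adjusted p = 0.0104). The desaturase PDS3 was called higher by 0.12, a call that ended without WT replicate 1, ced2 replicate 1 or ced2 replicate 2 (adjusted p = 0.0625, 0.0998 and 0.0627). Lower were NPQ1 (-0.47), the violaxanthin de-epoxidase that reverses the step of ABA1, the isomerase Z-ISO (-0.25, or -0.13 with normexp and quantile normalization), and the desaturase ZDS (-0.17), whose call ended with normexp (-0.03, adjusted p = 0.457). CRTISO (-0.04), a carotenoid isomerase, and LUT2 (0.08), the epsilon-cyclase, did not pass. CRTISO turned sign with normexp, and LUT2 was called higher in 5 of the 14 alternatives, among them quantile normalization (0.12, adjusted p = 0.0329) and normexp with it (0.17, adjusted p = 0.00727).

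Of the 5 NCED genes, NCED3 and NCED9, the second known mainly from seeds, were lower, by 1.33 and 0.93 (limma adjusted p = 0.000161 and 0.00275). NCED2 was called higher by 0.39 (adjusted p = 0.00631), a call lost with quantile normalization (0.18, adjusted p = 0.0957). Among all genes 35.6% were lower and 42.4% higher. With normexp and the 75th percentile NCED2 was called lower instead (-0.67, adjusted p = 0.00178). NCED5 did not pass (0.14, adjusted p = 0.0572), was called higher without WT replicate 1 (0.18, adjusted p = 0.0344) and turned sign with cyclic loess and normexp, being called lower with normexp and the 75th percentile (-1.32, adjusted p = 0.00175). Both NCED2 and NCED5 were dim. NCED2 had levels of -5.08 and -5.06 in the ced2 files, against -5.40 and -5.53 in the WT files. NCED5 had -7.21 and -7.18 in the ced2 files, against -7.28 and -7.38 in the WT files, and was well above background on only 1 ced2 array. NCED6 was not well above background on any array and was not tested.

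**Figure D4:**
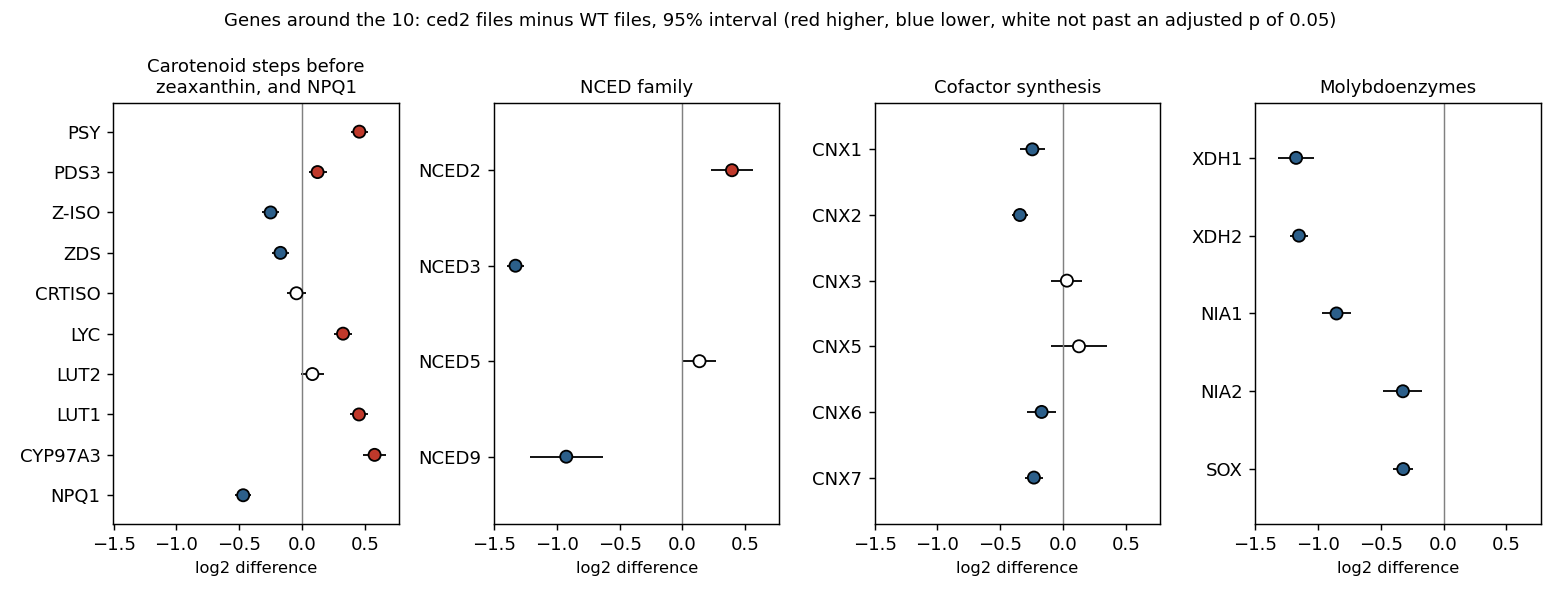
Log2 difference, ced2 files minus WT files (x axis), with 95% interval, of the tested genes of 4 lists (y axis): other carotenoid genes, the NCED family, molybdenum cofactor synthesis and other molybdoenzymes. Red points were higher, blue points lower, and white points did not pass; the 5 molybdoenzyme genes are all blue.

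Whole seedlings mix organs, and in such bulk RNA fewer cells of a type and less RNA per cell cannot be told apart. Over all genes 42.4% were higher in the ced2 files and 35.6% lower, the background for each marker count here. Of 10 root markers 8 were higher in the ced2 files, 1 was lower and 1 did not pass. Their summed signal, on the log2 scale, was 5.32 to 5.36 in the ced2 files, against 4.40 to 4.44 in the WT files. Most of that sum was PYK10, a root beta-glucosidase gene, at 5.197 and 5.154 in the ced2 files, against 4.25 and 4.29 in the WT files. Leaf markers were 2 higher, 3 lower and 5 not past of 10, with sums of 9.37 to 9.57 in the ced2 files, against 9.69 to 9.87 in the WT files. Of 6 vascular markers, which matter here because ABA2 and AAO3 are known from vascular tissue, 2 were higher, 3 were lower and 1 did not pass, with sums of 3.997 and 3.998 in the ced2 files, against 3.83 to 3.87 in the WT files. Most of the vascular sum was the phloem sucrose transporter gene SUC2, at 3.74 and 3.75 in the ced2 files, against 3.60 and 3.55 in the WT files. Guard cell markers were higher in 3 of 4, with sums of 0.24 to 0.27 in the ced2 files, against -0.20 to -0.17 in the WT files.

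Every marker was well above background on at least 1 array. NRT2.1, the lower root marker, was not well above background on either ced2 array. All 12 clock genes differed, 5 higher and 7 lower, among them LHY (1.07) and PRR3 (-2.79), where 77.9% of all genes were called. Their summed signal was 4.95 to 4.96 in the ced2 files, against 5.29 to 5.31 in the WT files. The part of organ makeup and of time of day in the differences of the 10 genes was not tested. On the shared slide the ced2 RNAs occupied positions 4 and 3 and the WT RNAs positions 1 and 2, so an effect of position cannot be told apart from genotype.

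**Figure D5:**
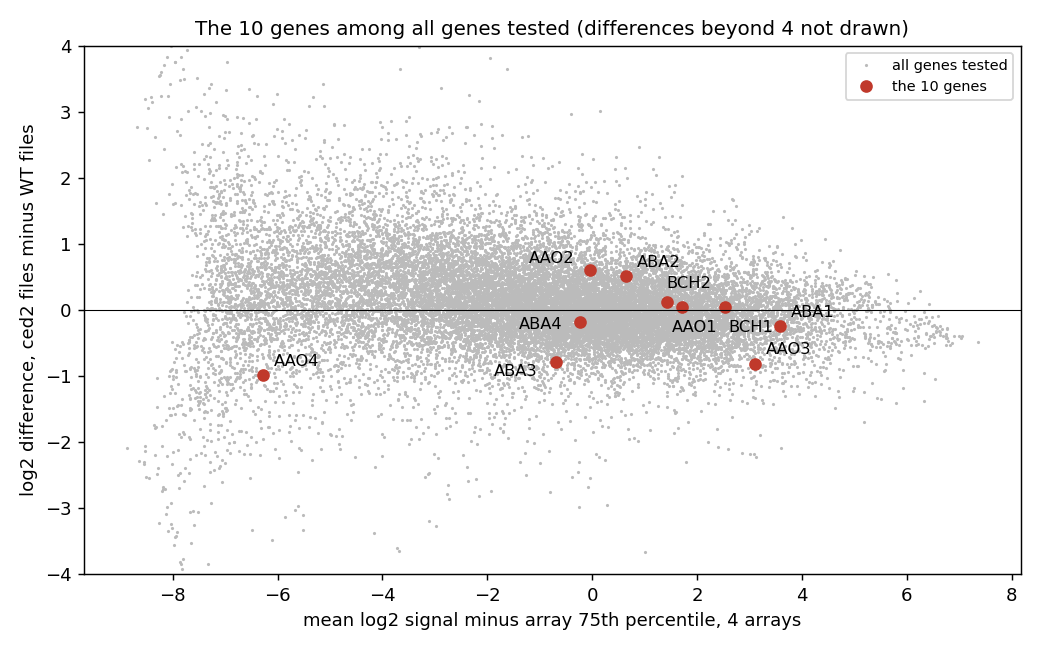
Log2 difference, ced2 files minus WT files (y axis), against the mean log2 signal over the 4 arrays (x axis) for 20835 tested genes (grey), with the 10 genes in red and 20 genes with a difference beyond 4 not drawn. AAO4 lies at the dim end, and the other 9 among the brighter genes, within the spread of genes of like brightness.

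AAO4 had the largest difference of the 10 in the setting used throughout, though not with normexp and quantile normalization, where ABA3 (-0.82), AAO3 (-0.72), AAO2 (0.60) and ABA2 (0.51) differed by more. The genes whose 4 array values, centred on their own mean, lay nearest to those of AAO4 among 20834 others were AT2G40711, AT1G01355 and AT5G11930, at root mean square distances of 0.01, 0.02 and 0.02 on the log2 scale. With 4 arrays in 2 groups, such likeness says little more than that these genes were lower by about as much as AAO4.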

How the data were processed

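Per the labels, Cy3-labelled cRNA made from 0.3 µg of RNA was hybridised to one-colour Agilent arrays, and replicates are biological. The submitters' processing notes name Agilent Feature Extraction 10.7.1.1. According to their headers, the deposited files of the scanner give an intensity per spot (processed signal, background-subtracted and detrended, not normalized between arrays), spot and background medians, and flags. The authors' deposited value table holds log2 values whose scale and direction are not stated. Compared with the scanner files, its scale is that used here, centred on each probe's median over the arrays (column medians 0.01 and -0.03 for ced2, 0.08 and -0.03 for WT).

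Control and outlier spots were dropped, as were 70 of 43603 probes without a spot left on some array. Accessions of 34236 of the 43533 probes matched a RefSeq gene table (assembly TAIR10.1), which assigned probes to genes. The other 9297 probes were left out of the fit over genes. A gene stood by its probe with the highest mean signal and was tested if both arrays of at least 1 genotype showed that probe well above background. Groups were compared two-sided with limma 3.58.1 in R 4.3.3 (2 residual and 1.49 prior degrees of freedom), p-values were adjusted by Benjamini-Hochberg across all of these genes, and the fit was tested on simulated data. The genes named are the 10, VSR1, NCED3, the members of 4 pathway lists and the 3 genes most like the member that differed most; clock and organ markers named are examples. Members and lists were chosen with earlier results of these data known. Replicate numbers are shared between genotypes, but nothing pairs the samples. The number of arrays limits the precision.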

Additional observations from a re-analysis of the deposited data

How the results depend on the processing

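Under 14 alternatives that follow the scanner labels, all 10 genes kept their direction. Of the 10, 5 kept their call (ABA2, ABA3, AAO2, AAO3, AAO4), 3 lost it in at least 1 (ABA1, ABA4, BCH2) and 2 gained it in at least 1 (BCH1, AAO1). Alternatives that altered only the filter, the limma model or the p threshold could not move a difference. Cyclic loess, and normexp with the 75th percentile, were chosen after seeing the data. Normexp was run on the median spot signal. Cyclic loess called 5 of the 10 higher, and an adjusted p of 0.01 left 3 lower. Without 1 array, limma called 2 to 3 of the 10 higher and 3 to 4 lower (3 without WT replicate 2 or ced2 replicate 1), and 1 to 2 NCED genes higher (2 without WT replicate 1); the lone sample of a genotype is then assumed to vary like the other genotype. Limma called 0 NCED genes higher with quantile normalization, normexp with either scaling, and cyclic loess (at an unadjusted p of 0.05, 1 with cyclic loess and 0 with the others), and 1 cofactor gene higher with normexp and quantile normalization. Normexp with the 75th percentile called 4 NCED genes lower and 5696 of all genes higher, against 8831 in the setting used throughout.

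Signs turned for CNX3 with quantile normalization (-0.086), normexp with quantile normalization (-0.043) or the 75th percentile (-0.0635), and cyclic loess (-0.0716); without 1 array its difference ranged from -0.0169 to 0.0788. NIA2 turned with quantile normalization (0.0199), CRTISO with normexp and quantile normalization (0.0028) or the 75th percentile (0.0048), and NCED5 with normexp and quantile normalization (-0.0197), normexp and the 75th percentile (-1.32) and cyclic loess (-0.0773). NCED2 turned with normexp and the 75th percentile (-0.671). Of these turned values, limma passed those of NCED2 and NCED5 with normexp and the 75th percentile; the cause was not tested. Averaging the probes of a gene moved CNX6 to -0.10, NIA2 to -0.16 and PDS3 to 0.19, and limma still passed each.

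With the replicate number as a block, 3 of the 10 were higher and 4 lower, since ABA4 lost its call (adjusted p = 0.0797), as did CNX6 (adjusted p = 0.0567); of the 36 genes refitted, which leave out the clock and organ markers, the other 34 kept their call. Deviations of same-numbered arrays correlated across genes at 0.05. A slide block was not run, as all arrays lay on 1 slide.

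The authors' value table with its own labels turned every sign, by its construction: 5 of the 10 higher and 3 lower, 3 carotenoid genes higher and 5 lower, 2 NCED genes higher and 1 lower, 4 cofactor genes higher and 0 lower, 5 molybdoenzyme genes higher and 0 lower (limma, also 0 and 0 lower at an unadjusted p of 0.05). There ABA1 differed by 0.241, ABA2 -0.515, ABA3 0.787, ABA4 0.182, BCH1 -0.0465, BCH2 -0.119, AAO1 -0.0486, AAO2 -0.607, AAO3 0.81, AAO4 0.979, PSY -0.457, PDS3 -0.124, Z-ISO 0.25, ZDS 0.172, CRTISO 0.0438, LYC -0.327, LUT2 -0.0828, LUT1 -0.454, CYP97A3 -0.578, NPQ1 0.468, NCED2 -0.394, NCED3 1.33, NCED5 -0.135, NCED9 0.926, CNX1 0.245, CNX2 0.344, CNX3 -0.0302, CNX5 -0.126, CNX6 0.171, CNX7 0.233, XDH1 1.18, XDH2 1.15, NIA1 0.854, NIA2 0.325, SOX 0.322 and VSR1 3.67.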
